A study of Homo sapiens with 10 samples.

Results

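Broad H3K4me3 peaks of control cells were taken as the peaks of the H3K4me3 list of CT cells with a width of 1500 bp or more. They were 6270 of the 76814 peaks of that list. The cells were HEK-293T, a line derived from human embryonic kidney, and ChIP-seq was used to compare CTCF binding and histone marks between levels of CGGBP1, a protein that binds CGG repeats. CT cells carried a non-targeting shRNA, KD cells carried shRNAs against CGGBP1, and OE cells overexpressed FLAG-tagged CGGBP1. The shRNA cells were selected with puromycin at 10 ug/ml, whereas a selection of the OE cells is not stated in the sources. CTCF was measured in CT, KD and OE, the histone marks H3K4me3, H3K9me3 and H3K27me3 in CT and KD, and an input without immunoprecipitation was sequenced as well, though it is not clear from which of these cells. Each condition had 1 library, so no difference between conditions could be checked against replicates, and no test was made. The lists hold positions only and not the number of reads behind a peak, and a peak present in part of the cells cannot be told apart from a weaker peak present in all of them. The labels give p thresholds of 0.001 for the histone and input peaks, 0.0025 for CTCF in CT and KD, and 0.005 for CTCF in OE. By these labels the OE list had a looser threshold than the lists it is set beside, whereas the methods name a single threshold for all unmasked lists, and which was used could not be told. The width in CT chose the members, so widths in CT are given as a description.

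H3K4me3, the trimethylation of lysine at position 4 of histone H3, marks nucleosomes around active or poised transcription starts and is laid down by the SET1 and MLL methyltransferase complexes. Promoters in CpG islands recruit these complexes in part through proteins that bind unmethylated CpG. Unusually wide domains of the mark have been described at genes that are highly transcribed or define the identity of a cell, and CTCF, a zinc finger protein that anchors chromatin loops with cohesin, often binds near promoters.

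To show the sequences behind the CTCF results, 30 bases around the best CTCF match of peaks at named broad peaks are given from hg38, 5′ to 3′ on the strand of the match, with the 14 bases of the match in capitals. The match was found with a weight matrix whose most frequent bases read CCACCAGGGGGCAC. The first 5 sites lay in CTCF peaks of CT, KD and OE alike: chr1:226064431-226064460 on the minus strand in a coding exon and chr1:226064974-226065003 on the plus strand in an intron of H3-3A, which encodes a replacement variant of histone H3, chr1:156725956-156725985 on the minus strand in an intron of ISG20L2, chr2:96763841-96763870 on the minus strand in an intron of CNNM4, and chr13:75482662-75482691 on the minus strand, between genes in the member that holds a start of TBC1D4. The site at P4HA1, at chr10:73096857-73096886 on the plus strand in the UTR, lay in peaks of CT and KD. The sites at CERCAM, at chr9:128420352-128420381 on the plus strand in the UTR, and at C1orf109, at chr1:37692379-37692408 on the plus strand between genes, lay in peaks of KD alone. The site at chr1:149832681-149832710 on the plus strand, in the coding exon of H4C14, lay in peaks of KD and OE. The sites at KIF11, at chr10:92590867-92590896 on the plus strand in an intron, and at ZNF462, at chr9:106862893-106862922 on the minus strand between genes, lay in peaks of OE alone. At P4HA1, C1orf109 and KIF11 the CTCF peak overlapped the edge of the broad peak and the site itself lay outside it. Annotations are those of GENCODE release 44.

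H3-3A exon: tcacccctCCAGTAGAGGGCGCactcttgc

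H3-3A intron: ggcatctgCCATTAGAGGGCAGaagttgcc

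ISG20L2: tcaggaggCCGCCAGAGGGCGCccttggtc

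CNNM4: tgccttcaCCACTAGGGGTCTGtctctcca

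TBC1D4: tggcccccTCTCTAGGGGGCAGcagagacg

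P4HA1: gcgactggGCAGCAGAGGGAGCccgttagc

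CERCAM: cgccagggCCGCCAGAGGGCGCccggggcg

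C1orf109: gcactcagGCTATAGGGGGCGCattgggcg

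H4C14: ggtcatgtCCGGCAGAGGAAAGggcggaaa

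KIF11: agagatgaCCAGCAGAAGGAGCtgtagatg

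ZNF462: acgccggaGCACCAGGGGGTGCgcgaagcc

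The promoters under broad peaks differed widely in CpG content, and the 250 bases before the RefSeq start (GRCh38) are shown for 5 of them, on the strand of the gene and with each CpG in capitals. All 5 stretches lay inside a broad peak. The stretch of LIN28B, an RNA-binding protein that blocks maturation of let-7 microRNAs, lies at chr6:104956857-104957106 on the plus strand in an intron and held 6 CpGs. That of KIF11, a kinesin motor of the mitotic spindle, lies at chr10:92592880-92593129 on the plus strand in an intron and held 18. The stretches of the ribosomal protein genes RPS6, at chr9:19380237-19380486 on the minus strand, RPL10A, at chr6:35468151-35468400 on the plus strand, and RPL28, at chr19:55385682-55385931 on the plus strand, lie between genes and held 14, 27 and 31.

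LIN28B: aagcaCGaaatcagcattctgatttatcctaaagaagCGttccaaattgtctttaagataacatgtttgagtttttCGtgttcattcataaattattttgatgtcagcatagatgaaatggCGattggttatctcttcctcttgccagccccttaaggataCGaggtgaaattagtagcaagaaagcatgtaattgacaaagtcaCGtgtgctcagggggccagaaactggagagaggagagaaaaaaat

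KIF11: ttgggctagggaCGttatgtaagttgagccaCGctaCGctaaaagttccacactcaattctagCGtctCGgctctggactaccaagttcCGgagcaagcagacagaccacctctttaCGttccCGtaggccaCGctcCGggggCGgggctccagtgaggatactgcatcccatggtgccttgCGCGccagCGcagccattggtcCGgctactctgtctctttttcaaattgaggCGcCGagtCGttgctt

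RPS6: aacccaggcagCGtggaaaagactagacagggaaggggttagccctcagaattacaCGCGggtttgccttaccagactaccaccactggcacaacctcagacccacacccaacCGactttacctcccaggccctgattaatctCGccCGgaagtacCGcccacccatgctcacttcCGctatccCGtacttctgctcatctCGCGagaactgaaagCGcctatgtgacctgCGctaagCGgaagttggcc

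RPL10A: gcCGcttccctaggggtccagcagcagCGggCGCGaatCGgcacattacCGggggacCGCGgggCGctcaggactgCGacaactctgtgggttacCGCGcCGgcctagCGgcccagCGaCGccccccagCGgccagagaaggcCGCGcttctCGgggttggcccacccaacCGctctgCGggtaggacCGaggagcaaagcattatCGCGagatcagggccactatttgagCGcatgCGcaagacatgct

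RPL28: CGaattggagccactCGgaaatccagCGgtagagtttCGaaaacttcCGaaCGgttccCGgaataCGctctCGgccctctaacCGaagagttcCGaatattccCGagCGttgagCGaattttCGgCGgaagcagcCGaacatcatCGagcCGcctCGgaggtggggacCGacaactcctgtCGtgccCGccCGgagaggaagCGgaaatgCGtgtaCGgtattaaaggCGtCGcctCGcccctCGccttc

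The members made up 8.16% of the H3K4me3 peaks of CT and 22.2% of the bases these peaks cover, 11.8 of 53.4 Mb. Their median width was 1798 bp (quartiles 1633 and 2039), and the widest measured 4336 bp. At the threshold, the narrowest member measured 1500 bp and the widest peak outside 1499 bp, with 601 members of 1500 to 1549 bp and 635 peaks of 1450 to 1499 bp; no gap in width was seen there. A width of 2000 bp or more was reached by 1788 members, and 63 measured 3000 bp or more. The list of KD held 6228 peaks of 1500 bp or more. On chromosomes 1 to 22, X and Y lay 6125 members, 126 lay on alternate loci of hg38, of which 62 belong to chromosome 6, and 17 lay on unplaced or unlocalized sequences. The remaining 2 lay on the mitochondrial genome, over MT-ND1 with 3255 bp and over MT-CYB and MT-ND6, named after their values were seen. The share of a chromosome's H3K4me3 peaks that were broad was highest on chromosome 17, with 9.95% (95% interval 8.87 to 11.1), and 19, with 9.80% (8.74 to 10.9). Among the autosomes it was lowest on chromosome 18, with 5.11% (4.06 to 6.32). Intervals of shares are exact Clopper-Pearson intervals over peaks and cover counting error only.

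Broad peaks lay on sequence richer in CpG than narrower peaks of the same list. The median GC content was 52.4% in broad peaks and 46.4% in narrower ones, and the median number of CpGs per kb was 44.6 against 17.1. The ratio of observed to expected CpGs had a median of 0.651 in broad and 0.345 in narrower peaks. A GC content of at least 50% together with a ratio of at least 0.6, here called island-like, was met by 48.4% (47.2 to 49.7) of the broad and by 17.6% (17.3 to 17.9) of the narrower peaks. Against peaks of 500 to 1499 bp alone, in which 23.7% (23.3 to 24.2) were island-like, the order was the same. Bases in 24-mers that occur at least 10 times in hg38, used as a measure of repeats, made up 5.85% of the pooled bases of broad and 11% of those of narrower peaks. The median share per peak had the opposite order, 1.20% in broad and 0% in narrower peaks.

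The labelled cell line was checked with H3K4me3 peaks at the starts of marker genes, which mark promoters and not expression. Of 10 genes known to be active in HEK-293T cells, 6 had a start in a broad peak, among them VIM, KRT8 and KRT18, which encode intermediate filaments of mesenchymal and epithelial cells, the neurofilament gene NEFL and the DNA repair gene XRCC5. PAX2 had a start in a narrower peak of 679 bp, and INA, NEFM and TUBB3 had none. A start beside a peak or in a gap between peaks counts as none, which does not show that the mark was absent. Of 28 markers of hepatocytes, blood cells, muscle, pancreas, fibroblasts, keratinocytes, pluripotent cells and endothelium, 26 had no start in a peak. The exceptions were the fibroblast genes COL1A1, in a broad peak of 1621 bp, and DCN, in a peak of 638 bp.

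Most broad peaks held the start of a protein-coding gene. On chromosomes 1 to 22, X and Y, a start of an annotated protein-coding transcript lay in 4459 members, which is 72.8% (71.7 to 73.9), while it lay in 12.9% (12.6 to 13.1) of the narrower peaks and in 21.5% (21.1 to 22) of the peaks of 500 to 1499 bp. Within 1000 bp of the peak or inside it the shares were 81.5% (80.5 to 82.5) for the members and 28.1% (27.7 to 28.4) for the narrower peaks. A start of any annotated transcript lay in 80.6% (79.5 to 81.5) of the members, and that of a long non-coding RNA in 21.7% (20.7 to 22.8). The share with a protein-coding start rose with each width class, from 3.05% below 250 bp over 49.0% (47.4 to 50.6) at 1250 to 1499 bp and 64.2% (62.4 to 66.0) at 1500 to 1749 bp to 86.8% (82.8 to 90.1) at 2500 bp or more. No step was seen at 1500 bp.

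**Figure D1:**
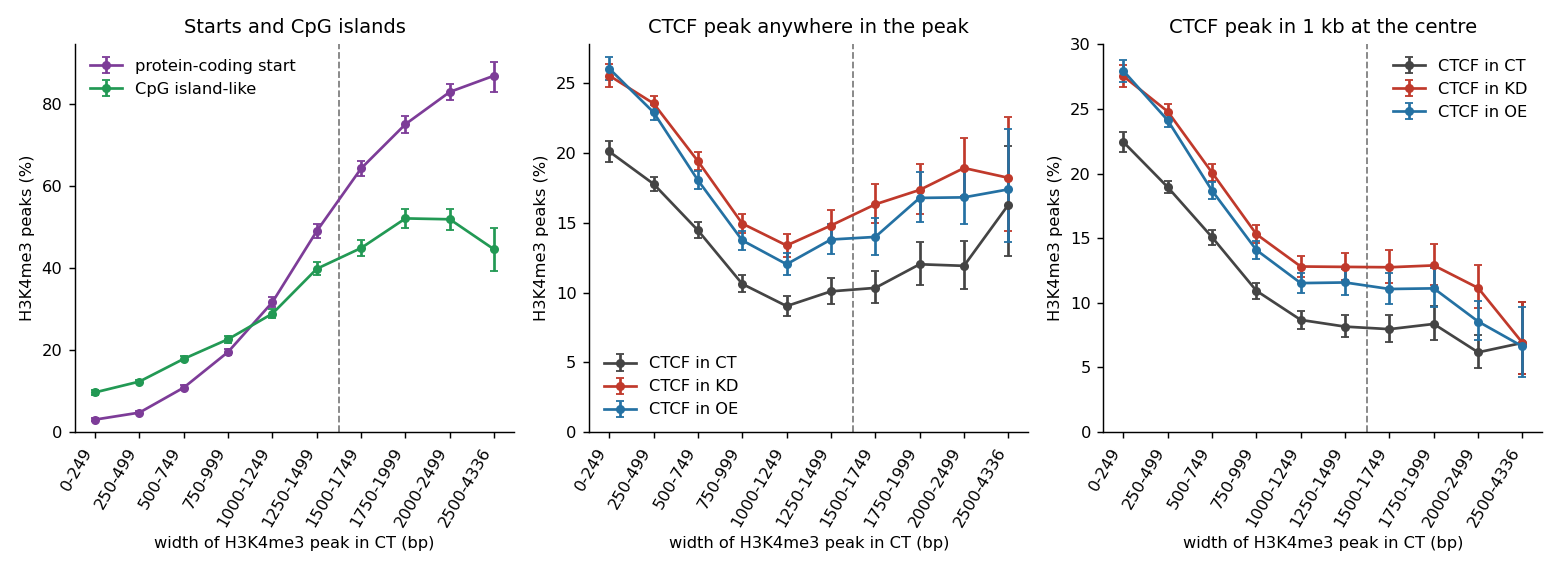
Share of the H3K4me3 peaks of CT (%, with exact 95% intervals) by width class (bp), for peaks with a protein-coding start and island-like peaks, for peaks overlapped by a CTCF peak of CT, KD or OE, and for a CTCF peak within 1 kb at the centre of the peak. The dashed line marks 1500 bp: the share with a protein-coding start rose from 3.05% to 86.8% over the classes, and a CTCF peak of CT in the central 1 kb was found in 22.4% of the narrowest and 6.91% of the widest class.

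The peaks extended further into the gene than upstream of it. Of the members, 3099 held exactly 1 start of a protein-coding gene's canonical transcript, the representative that Ensembl chooses for each gene. Around these starts the peak reached a median of 672 bp upstream (quartiles 493 and 883) and 1158 bp downstream (978.5 and 1444), and the downstream arm was the longer one in 83.1% (81.7 to 84.4). More than 1 canonical start lay in 557 members, and in 419 of these the starts included a divergent pair. No canonical start lay in 2469 members. Of those, 864 began within 1000 bp downstream of the nearest canonical start and 103 ended within 1000 bp upstream of it, so that peaks beside a start also lay mostly on the side of the gene body. Gaps of at most 500 bp between a member and the next H3K4me3 peak numbered 1299, with a median of 242 bp, and 34.8% (32.2 to 37.5) of them held a canonical start. A promoter can thus fall between a pair of listed peaks, and 20.4% of the members had another peak within 500 bp. Neighbouring peaks of CT were never closer than 146 bp.

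Counted by genes, 5181 of 20033 protein-coding genes (25.9%) had a start in a broad peak of CT, 6673 (33.3%) in narrower peaks only and 8179 (40.8%) in none. Genes whose starts lay only beside peaks or in gaps between them are counted in none. In KD, 5280 genes had a start in a peak of 1500 bp or more, and 4580 genes did in both. The gene lists below were set beside these shares without a test. The 77 genes of cytosolic ribosomal proteins had the highest share of all lists used, with 65 (84.4%) in broad peaks of a median 2119 bp, and the other 12 in narrower peaks. The widest of them lay at RPLP1, a protein of the ribosomal stalk, with 2981 bp in CT, and at RPL10A, with 2779 bp. At RPS27 the peak measured 1560 bp. In KD, 65 of the 77 genes had a start in a peak of 1500 bp or more, and 60 did in both conditions. Among the 16 housekeeping genes, 12 had a broad peak, including ACTB, which encodes beta-actin, with 2239 bp, GAPDH, a glycolytic enzyme, with 1963 bp, and NPM1, a nucleolar chaperone, with 2581 bp. The peaks of LDHA, PKM and PPIA measured 1237 to 1462 bp. Of the 15 splicing factors 11 had a broad peak, the widest at SRSF1, a serine and arginine-rich factor, with 2784 bp, SRSF3 with 2613 bp and SRSF7 with 2576 bp. SRSF2 had 900 bp and SFPQ 650 bp.

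**Figure D2:**
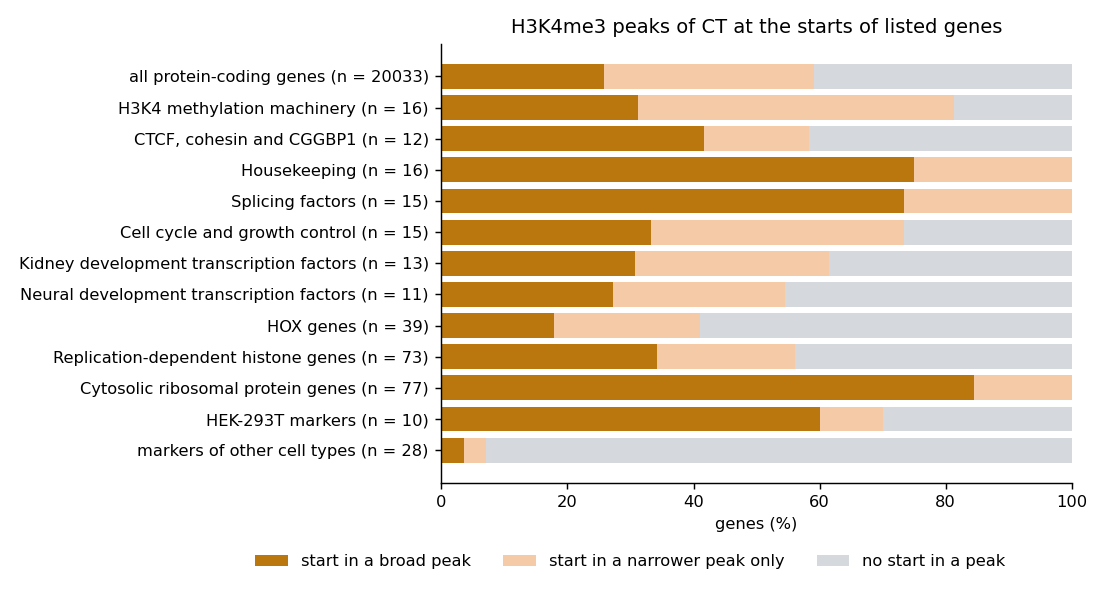
Share of the genes of each list (%) with a transcript start in a broad H3K4me3 peak of CT, in narrower peaks only, or in none, beside all 20033 protein-coding genes. Ribosomal protein genes had the highest share in broad peaks, 84.4%, and markers of other cell types the lowest, 3.57%.

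Lists of regulators lay closer to the share over all genes. Of the 16 genes of the H3K4 methylation machinery 5 had a broad peak: KDM5A (2666 bp) and KDM5C (2280 bp), which encode demethylases of the mark, ASH2L (2149 bp) and RBBP5 (2082 bp), core subunits of the methyltransferase complexes, and MEN1 (1775 bp), a subunit of MLL complexes. CXXC1, which encodes the CpG-binding subunit of the SET1 complexes, had a peak of 980 bp in CT and a start in a KD peak of 1823 bp. Of 12 genes for CTCF, cohesin and CGGBP1, 5 had a broad peak. That of CGGBP1 itself, the gene targeted in KD, lay at chr3:88148607-88151169 and measured 2563 bp in CT and 2505 bp in KD, so its promoter kept a broad peak. The mark does not measure its mRNA or protein, and the knockdown was not checked here. The cohesin subunit genes SMC3, SMC1A and RAD21 had 2857, 2347 and 1793 bp in CT, with ratios of KD to CT width of 0.783, 0.973 and 1.16. The cohesin loader gene MAU2 had 2133 bp in CT, with a ratio of 1.02. CTCF, NIPBL, PDS5A, STAG1 and WAPL had no start in a peak. Whether a peak lay beside their starts was not examined, so this does not show that their promoters lacked the mark. None of the 5 broad peaks of this list was overlapped by a CTCF peak in any of the 3 lists.

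Developmental regulators had broad peaks at a few genes each. Of 13 transcription factors of kidney development, 4 had a broad peak, among them WT1 (1723 bp), EYA1 (1599 bp) and GATA3 (1580 bp). Of 11 factors of neural development, 3 did: ZIC2 (2266 bp), PAX6 (1757 bp) and OLIG2 (1661 bp). Of 39 HOX genes, which pattern the body axis, 7 did, among them HOXC4 with 2329 bp and HOXB13 with 2169 bp, while HOXB3 and HOXB6 shared a peak of 2170 bp. Of 15 genes of the cell cycle and growth control, 5 had a broad peak, among them CDKN1B, an inhibitor of cyclin-dependent kinases, with 1786 bp. Genes of replication-dependent histones, taken by symbol, had a broad peak at 25 of 73. Many of these genes lie close together, so several share a peak, as H2BC18 and H3C13 did at chr1:149811016-149813806, with 2791 bp.

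Most of the 20 widest members held a protein-coding start. The widest broad peak on chromosomes 1 to 22 and X was that of PPP1R15B, which encodes a subunit of the phosphatase that acts on the translation factor eIF2, at chr1:204407468-204411803. It measured 4336 bp in CT and 4310 bp in KD, 1 peak in each, and no CTCF peak lay in it. The next, of 3674 bp, lay over the starts of HNRNPH3, an RNA-binding protein, and PBLD at chr10:68331071-68334744. In KD this region held 3 peaks with a sum of 3483 bp. The axon guidance receptor gene ROBO1 had 3621 bp in CT and 3144 bp in KD at chr3:79016146-79019766. HADHA and HADHB, the subunits of the mitochondrial trifunctional protein of fatty acid oxidation, shared 3563 bp at chr2:26242594-26246156, with 3517 bp in KD. KIF11 had 3542 bp in CT and 3499 bp in KD, LIN28B had 3477 and 3328 bp, and the promoter shared by DAP3, a mitochondrial ribosomal protein, and YY1AP1 had 3469 and 3537 bp. Further members of the 20 widest lay at LAPTM4A, CREBZF, H4C15, HEY1, UBE2H, TNIK, EPC1, PSMB1 and TBP together, H4C14 and TRIM52, all of 3278 to 3447 bp. Those over SKI and CNNM4 had no protein-coding start inside but within 1000 bp. The remaining one, at chr9:67722602-67726140 over FAM27B, held no protein-coding start, was overlapped by an input peak, and 66.2% of its bases were repeated. Of the 20 widest, UBE2H, which encodes a ubiquitin-conjugating enzyme, had the lowest ratio of KD to CT width, 0.743, with 3404 bp in CT and 3 KD peaks that sum to 2529 bp.

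Promoter sequences differed between the sets in a few short motifs. The RefSeq table holds 300 bases for each start, 250 before and 50 after it. All of its 34943 distinct starts on chromosomes 1 to 22, X and Y had the same sequence in hg38. Of these, 5578 lay in a broad peak of CT, 6446 in a narrower one and 22919 in none. The median number of CpGs was 24, 22 and 6. Motifs were searched as exact letters on both strands, and none of the motifs contains another. The letters CCGGAAGT, a core bound by ETS factors, were found in 12.7% (11.9 to 13.7) of the promoters in broad peaks, 5.17% (4.64 to 5.73) of those in narrower peaks, 1.71% (1.55 to 1.89) of those in none and 4.11% of all. The motif of NRF1, 10 letters long, was found in 3.24% (2.80 to 3.74), 1.54% (1.25 to 1.87) and 0.650% (0.550 to 0.763), and in 1.23% of all. A motif of YY1, 11 letters long, was found in 2.58% (2.18 to 3.03), 1.04% (0.806 to 1.32) and 0.380% (0.304 to 0.468), and in 0.853% of all. These 3 motifs were thus more frequent under broad than under narrower peaks.

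The other motifs showed no such order. GGGCGGG, the GC box, was found in 42.6% (41.3 to 43.9) of promoters in broad and 42.4% (41.2 to 43.6) in narrower peaks, against 28.1% in none and 33.0% of all. CCAAT was found in 34.6%, 35.1% and 34.5%, and in 34.6% of all. TATAAA was less frequent under peaks, with 5.68% (5.09 to 6.32) in broad, 7.21% (6.59 to 7.87) in narrower and 14.2% in none, and 11.6% of all. A core of the CTCF motif was found in 2.35% (1.97 to 2.78) of promoters in broad peaks, 3.57% (3.13 to 4.05) in narrower ones and 2.10% in none, and in 2.41% of all. Of the promoters shown above, the 300 bases of RPS6 held the ETS letters, those of RPL10A the NRF1 letters, and those of KIF11 and RPL28 the GC box.

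CTCF peaks overlapped 722 of the broad peaks in CT, which is 11.5% (10.7 to 12.3), 1086 in KD, 17.3% (16.4 to 18.3), and 979 in OE, 15.6% (14.7 to 16.5), with an overlap of at least 1 bp. The share was 5.81 points higher in KD than in CT (4.94 to 6.67) and 4.10 points higher in OE than in CT (3.26 to 4.93), by intervals over peaks within these libraries. The narrower H3K4me3 peaks showed the same order, with 15.2%, 20.4% and 19.6% in CT, KD and OE, and so did the peaks of 500 to 1499 bp, with 11.9%, 16.5% and 15.2%. The differences of KD and OE from CT were 5.16 and 4.38 points over the narrower peaks. The lists of CTCF peaks themselves differed in size, with 42978, 47632 and 47216 peaks for CT, KD and OE. With the lists called on repeat-masked reads, all at a p threshold of 0.001, the shares at the members were 10.4% (9.68 to 11.2), 12% (11.2 to 12.8) and 10.0% (9.27 to 10.8) in CT, KD and OE. The difference between KD and CT fell to 1.53 points (0.842 to 2.22), and that between OE and CT turned to -0.431 points (-1.10 to 0.239). At the members the higher share in OE thus held only for the unmasked lists. At the narrower peaks the repeat-masked share stayed higher in OE, 10.7% against 9.66% in CT, and at the peaks of 500 to 1499 bp it was 10.5% against 9.91%.

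A CTCF peak in KD and none in CT was found at 573 members, 9.14% (8.44 to 9.88), beside 7.20% of all H3K4me3 peaks of CT. The opposite, a CTCF peak in CT and none in KD, was found at 209 members, 3.33% (2.90 to 3.81), beside 1.99% of all. For OE, 491 members, 7.83% (7.18 to 8.52), had a peak that CT lacked, beside 6.71% of all, and 234, 3.73% (3.28 to 4.23), lacked a peak that CT had, beside 2.36%. Broad peaks thus had more CTCF calls that differ in each direction, and they also span more sequence in which a CTCF peak can be met. In all, 4729 members (75.4%) had no CTCF peak in any of the 3 unmasked lists, and 460 (7.34%) had a CTCF peak in each of them, beside 79.6% and 9.40% of the peaks of 500 to 1499 bp. A peak in KD alone was found at 328 members (5.23%), in OE alone at 246 (3.92%), in KD and OE at 245 (3.91%), and in CT alone at 181 (2.89%). At the peaks of 500 to 1499 bp these shares were 2.88%, 2.08%, 3.53% and 1.55%. At the 722 members with a CTCF peak in CT, 71.1% had one in KD and 67.6% in OE, and 209 and 234 had none. Of all 11443 H3K4me3 peaks of CT with a CTCF peak in CT, 1526 had none in KD and 1810 none in OE. These counts include the members, and the difference from the members was not tested. At the members with one in KD, 47.2% had one in CT, and at those with one in OE, 49.8% did. Over all H3K4me3 peaks of CT, 5527 of the 15444 with a CTCF peak in KD and 5154 of the 14787 with one in OE had none in CT.

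Since a wide peak has more room for a CTCF peak, the shares were also taken in equal lengths. In the 1 kb at the centre of each peak, a CTCF peak was found at 7.61% (6.96 to 8.29) of the members in CT, 12.1% (11.3 to 12.9) in KD and 10.3% (9.51 to 11) in OE. Around the centres of peaks of 500 to 1499 bp the shares were 11.9%, 16.5% and 15.2%, but around those of 1250 to 1499 bp they were 8.16%, 12.8% and 11.6%, near the values of the members. From 250 to 500 bp inside the edges, CTCF peak centres in CT, KD and OE numbered 76.6, 131 and 115 per Mb at broad peaks, and 87.3, 128 and 121 at peaks of 1000 to 1499 bp. In the 250 bp outside the edges, CTCF peak centres numbered 43.4 per Mb (95% Poisson interval 36.4 to 51.3), 60.9 (52.6 to 70.2) and 52.3 (44.6 to 61.0) for broad peaks in CT, KD and OE, and 37.2 (34.4 to 40.2), 51.1 (47.8 to 54.6) and 42.1 (39.1 to 45.2) for those of 500 to 1499 bp. Beside the members, within 5000 bp of an edge with none inside, a CTCF peak lay in 14.4% (13.5 to 15.3) of cases in CT, 16.7% (15.8 to 17.6) in KD and 17.4% (16.5 to 18.4) in OE. At or beside the members the shares were 25.9% (24.8 to 27), 34.0% (32.8 to 35.2) and 33.0% (31.9 to 34.2), near those of the peaks of 500 to 1499 bp, 26.4%, 32.7% and 31.3%.

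Within the broad peaks, CTCF peak centres were densest just upstream of the transcription start. Around the 3099 starts that were the only canonical start in their peak, CTCF peak centres in the 250 bp upstream numbered 147 per Mb in CT (95% Poisson interval 121 to 177), 228 in KD (196 to 265) and 207 in OE (176 to 241). In the 250 bp downstream they numbered 28.4 (17.8 to 43.0), 36.1 (24 to 52.2) and 23.2 (13.8 to 36.7). The next 250 bp upstream held 82.6, 145 and 121 per Mb, and at 2750 to 3000 bp upstream the values were 19.4, 25.8 and 24.5. The side of the start was the same in the 3 conditions. Further into the gene, at 500 to 750 bp downstream, they were 28.4 (17.8 to 43.0), 60.7 (44.6 to 80.7) and 45.2 (31.5 to 62.8), below those just upstream of the start.

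**Figure D3:**
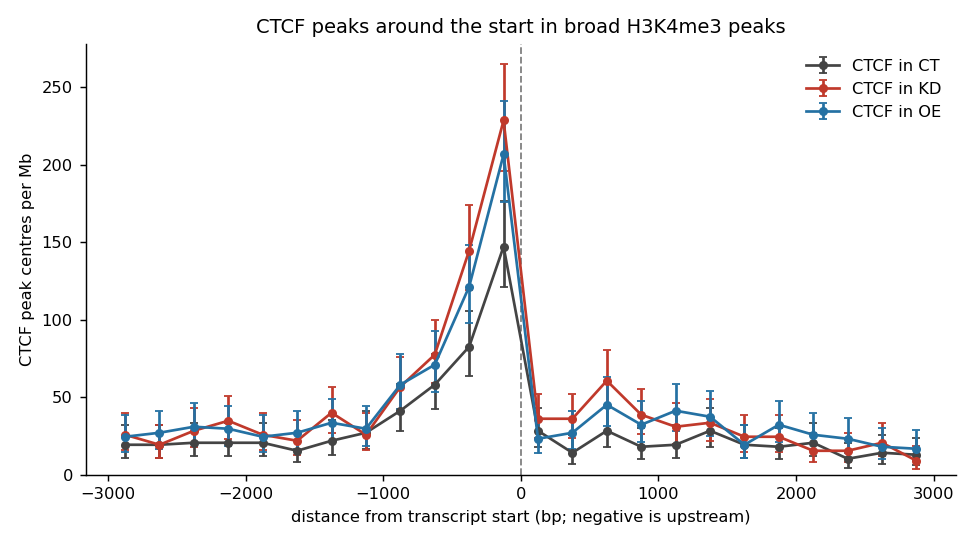
CTCF peak centres per Mb (with exact 95% Poisson intervals) in steps of 250 bp around the 3099 canonical starts that are the only one in a broad H3K4me3 peak, in CT, KD and OE, by distance from the start (bp, negative is upstream). The density was highest in the 250 bp upstream, 147, 228 and 207 in CT, KD and OE, and fell to 28.4, 36.1 and 23.2 in the 250 bp downstream.

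CTCF matches were counted in the CTCF peaks at broad peaks, without an estimate of how many arise by chance. The p is that of a single position in sequence with the base composition of hg38, not of a peak. CTCF peaks of CT had a median GC content of 55.6% at broad and 44.8% at narrower H3K4me3 peaks. In those away from H3K4me3 peaks and more than 5000 bp from a member it was 39.7%. At p below 0.0001 the share of peaks with a match was 72.2% (68.9 to 75.4) of 756 CTCF peaks in CT, 73.6% (71.0 to 76.1) of the 1159 found in KD and 70.2% (67.3 to 73.0) of the 1037 found in OE. At narrower H3K4me3 peaks it was 67.0%, 70.6% and 67.6%, and in CTCF peaks away from H3K4me3 peaks and more than 5000 bp from a member it was 39.4%, 65.3% and 52.7% in CT, KD and OE. The share thus varied with the condition outside the H3K4me3 peaks much more than at the members. At p below 0.00001 the order of broad and narrower peaks turned, with 47.9%, 45.1% and 43.7% at the members and 54.5%, 56.0% and 53.7% at narrower peaks. With the consensus at no more than 1 mismatch it was 32.0%, 30.9% and 30.1% against 42.6%, 43.5% and 42.0%. At p below 0.0001 the share at the members varied with how many lists shared the peak, which is partly built in, since the matrix was learned from repeat-masked CT peaks shared with KD and OE. CTCF peaks that overlapped a peak in both other lists held a match in 87.8% (84.5 to 90.7) of cases in CT, 88.7% (85.5 to 91.4) in KD and 88.5% (85.3 to 91.2) in OE. Those found in 1 list alone did so in 35.3% (28.7 to 42.3) of 204 peaks in CT, 50% (44.8 to 55.2) of 366 in KD and 30.7% (25.3 to 36.5) of 277 in OE.

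Of chromosomes 1 to 22, X and Y, 10 members with the most CTCF peaks over the 3 lists were looked at. Apart from the members at chr20:28841088-28843276 and chr21:8417770-8419509, they tied with further members that had as many CTCF peaks and were taken by width, so they do not stand for all. Of them, 4 held a protein-coding start, those of ISG20L2 and METTL25B, H3-3A, CAMLG and IGFBP3, each with 2 CTCF peaks in every list. At H3-3A, chr1:226062780-226065312, both CTCF peaks held a match at p below 0.00001 in CT, KD and OE, with the sites shown above. At ISG20L2, a ribonuclease gene that shares its promoter with METTL25B at chr1:156725686-156728477, both CTCF peaks held a match in the 3 lists, but only 1 of them at p below 0.00001. IGFBP3, which encodes a secreted binding protein of insulin-like growth factors, held a match in 1 of its 2 CTCF peaks in each list. The peak near ARSA at chr22:50620097-50622327 and that in LINC01297 at chr14:19344520-19346417 held matches in both CTCF peaks of each list. The remaining 4 lay on largely repeated sequence, at chr20:28841088-28843276 with 94.3% repeated bases, at chr21:8417770-8419509 with 56.6%, at chr21:8462323-8464085 with 57.3% and at chrX:58541795-58543515 with 100%. The first and the last of these were overlapped by input peaks too, 2 each.

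Among the gene lists, CTCF peaks lay at the broad peaks of 15 of 65 ribosomal protein genes in CT, 17 in KD and 14 in OE. A CTCF peak was found in all 3 lists at RPL10A, RPL36, RPS15 and RPL5, among others, at RPL39 and RPS20 in KD alone, and at RPL27, RPL29 and RPS3 in CT alone. Over all genes with a broad peak the counts were 540, 843 and 768 of 5181. The broad peaks at the 25 histone genes held no CTCF peak in CT, and in KD they held one at 5, all of which encode histone H4: H4C3, H4C4, H4C14, H4C15 and H4C16. The broad peaks of the histone H4 genes H4C1, H4C5, H4C8 and H4C11 held none in KD. In OE, H4C5, H4C14 and H2BC26 had one. The best match in the KD peaks of H4C14 and H4C15 had the same 30 bases, with the site at H4C15 at chr1:149861106-149861135 on the minus strand. From which of these copies the reads came was not tested. These matches passed p below 0.0001 and not 0.00001.

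In KD, nearly all broad peaks were found again with a similar width. The sum of the widths of overlapping KD peaks was divided by the width in CT, and the median of this ratio was 0.983 (quartiles 0.937 and 1.02, with a 95% interval of the median of 0.981 to 0.985). The ratio lay below 1 in 63.3% of the members, and the median difference was -32 bp. Since the members were chosen by their width in CT, the reverse choice was made too. For the 6228 peaks of KD of 1500 bp or more, the width in CT over that in KD had a median of 0.998 (0.997 to 1.0), and 51.3% of these ratios lay below 1, that is, with CT the narrower one. A ratio of 0.9 to 1.1 was found in 79.6% of the broad peaks and in 35.7% of the narrower ones. A KD peak that was itself 1500 bp or wider overlapped 82.6% of the members.

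Only 1 member had no KD peak, beside 14.1% of all H3K4me3 peaks of CT, but of the 3983 peaks of 1250 to 1499 bp none lacked one. The member lay on chromosome 17, measured 2078 bp, held no protein-coding start and no CTCF peak, and is described because its count is small, after its values were seen. A ratio of 0.7 or less was found at 55 members, 0.877% (0.661 to 1.14), beside 20.5% of all, and a ratio of 1.4 or more at 51, 0.813% (0.606 to 1.07), beside 12.5% of all. Among the peaks of 500 to 1499 bp the shares were 10.6% and 7.0%. A peak with no KD peak is counted among those of 0.7 or less. Over all H3K4me3 peaks of CT, 10838 of the 15743 counted there had no KD peak. With the reverse choice, 52 KD peaks had a ratio of 0.7 or less and 59 a ratio of 1.4 or more. An equal change in bp gives a ratio nearer to 1 at a wide peak, so these shares do not show whether widths changed less at broad peaks. The balance of both directions depended on the measure: with the ratio divided by that of the bases covered by the lists, 72 were narrower and 43 wider, and with the widest KD peak in place of the sum, 487 and 50.

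The number of KD peaks over a member was 1 at 5616 members, 2 at 628 and 3 at 25. Conversely, at 168 members (2.68%) a KD peak covered another CT peak as well. Of the 51 members called wider in KD, 50 were of this kind, and 2 still had a ratio of 1.4 or more after peaks with gaps of at most 500 bp had been merged in both lists. These were IGF2BP3, an RNA-binding protein, with 1586 bp in CT and 2245 bp in KD, and a peak with no protein-coding start on chromosome 1 with 1816 and 2678 bp, both named after their values were seen. Of the 55 members called narrower, 36 were still narrower after merging. A protein-coding start lay in 26.4% of the narrower and in 65.3% of the wider ones. Most of the calls of greater width thus marked a gap between neighbouring peaks that was listed in CT and not in KD.

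**Figure D4:**
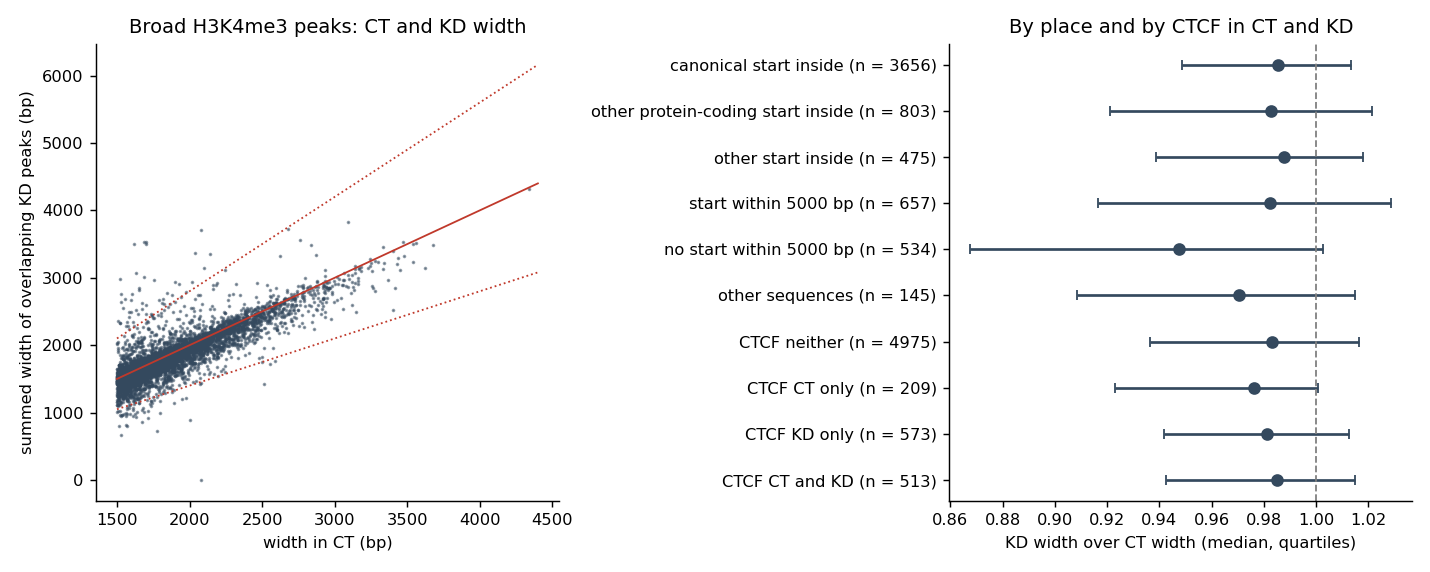
Left, summed width of overlapping KD peaks against width in CT (bp) for each broad H3K4me3 peak, with the line of equal width and dotted lines at 0.7 and 1.4 times the CT width. Right, median ratio of KD to CT width with quartiles by place and by CTCF peaks in CT and KD; members with no start within 5000 bp had the lowest median, 0.947, and the CTCF classes lay between 0.976 and 0.985.

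The ratio was also taken by the place of the peak. Members with a canonical start inside had a median ratio of 0.985 (0.983 to 0.987). Over all H3K4me3 peaks of CT, 20.5% were called narrower, counting those with no KD peak, and 12.5% wider. Of the 3656 members with a canonical start inside, 3 (0.0821%) were called narrower and 19 (0.520%) wider. The narrower ones were ZNF462, a zinc finger protein, with 0.684, SOD2, the mitochondrial superoxide dismutase, with 0.693, and SMIM10 with 0.698, of which SOD2 and SMIM10 were named after their values were seen. The 534 members with no start of any transcript within 5000 bp had a median ratio of 0.947 (0.938 to 0.961), and 21 of them, 3.93% (2.45 to 5.95), were called narrower, while 3 were called wider. Since the members were chosen by their width in CT, by which the ratio is divided, and no choice by width in KD was made by place, the order by place is a description only. These distal members were also poorer in CpG, with a median GC content of 42.4% and 11.2% island-like peaks. The widest of them lay at chr6:26310904-26314156, with 3253 bp in CT and 3212 bp in KD. It and the next region are named after their values were seen. At chr16:46398545-46401608, on sequence with 74.7% repeated bases and an input peak, the CTCF peaks of CT, KD and OE covered nearly the whole member.

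The presence of a CTCF peak went with little difference in width. The median ratio was 0.983 (0.981 to 0.985) at the 4975 members with no CTCF peak in CT or KD, 0.976 (0.962 to 0.985) at the 209 with one in CT alone, 0.981 (0.976 to 0.989) at the 573 with one in KD alone and 0.985 (0.982 to 0.992) at the 513 with one in both. All 4 intervals overlap. With a CTCF peak in neither list, 44 members were called narrower (0.884%) and 36 wider (0.724%). With one in CT alone they were 2 (0.957%) and 1 (0.478%), and with one in KD alone 6 (1.05%) and 9 (1.57%). With one in both they were 3 (0.585%) and 5 (0.975%). These shares were 0.877% and 0.813% over all members, and 20.5% and 12.5% over all H3K4me3 peaks of CT. The 20.5% includes peaks with no KD peak.

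The members with a protein-coding start and the lowest ratios mostly lacked the canonical start of their gene, which only ZNF462 held among the 10. At NSD3, a histone methyltransferase gene, the peak at chr8:38379822-38381352 measured 1531 bp in CT and 668 bp in KD, a ratio of 0.436. FOXP1, a forkhead transcription factor gene, had 2512 bp in CT and 2 KD peaks that sum to 1421 bp at chr3:71062292-71064803, a ratio of 0.566. It was overlapped by a CTCF peak in CT, without a match, and by none in KD or OE. SESN1, a stress-induced regulator of growth signalling, had 1713 and 1031 bp, a ratio of 0.602, and the RAP exchange factor gene RAPGEF4 had 1548 and 975 bp, a ratio of 0.630. The other 6 were NBEA, BACH2, SOX6, CCNY, P4HA1 and ZNF462, with ratios of 0.651 to 0.684. P4HA1, which encodes the catalytic subunit of a collagen prolyl hydroxylase, fell from 2590 to 1761 bp and was overlapped at its edge by CTCF peaks on the same site in CT and KD. ZNF462 fell from 2073 bp to 3 KD peaks that sum to 1418 bp and had its CTCF peak in OE alone.

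At the other end, the members with a protein-coding start and the highest ratios each had at least 1 other CT peak within 500 bp. The start of EWSR1, an RNA-binding protein gene, and RHBDD3 lay in a member of 1685 bp at chr22:29266860-29268544, and a further start of EWSR1 in the next member of 1701 bp at chr22:29268699-29270399. In KD a single peak of 3529 bp covered both, so their ratios of 2.09 and 2.07 describe 1 merged peak. TBC1D4, a GTPase-activating protein gene of insulin signalling, had 1699 bp in CT and a KD peak of 3494 bp, a ratio of 2.06, with a CTCF peak in all 3 lists. COP1, a ubiquitin ligase gene, had 2076 and 3714 bp, and C1orf109 had 1527 and 2639 bp, each with a CTCF peak in KD alone. CERCAM, with 1649 and 2820 bp, also had a CTCF peak in KD alone, on the site shown above. The ribosomal protein gene RPL15 had 1602 and 2754 bp, a ratio of 1.72. KLC1, a kinesin light chain gene, OGT, which encodes the enzyme that adds N-acetylglucosamine to proteins, and CCNL1, a cyclin of splicing complexes, had ratios of 1.73, 1.66 and 1.57 and no CTCF peak.

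Within the fixed gene lists the median ratios lay near 1, while single genes differed more. At the 65 ribosomal protein genes with a broad peak the median was 0.993, with 0.729 at RPL23A as the lowest and 1.72 at RPL15 as the highest value. At the 12 housekeeping genes it was 0.978, from 0.759 at YWHAZ to 1.31 at GAPDH, and at the 11 splicing factors 0.985, from 0.727 at HNRNPU to 1.04 at HNRNPA2B1. The ratio at GAPDH sums all KD peaks over its member of 1963 bp, while the KD peak with a start measured 1609 bp. At the 25 histone genes it was 0.971, from 0.866 at H2BC12 to 1.4 at H2AC19. Over all 5181 genes with a broad peak the median was 0.985.

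Listed peaks of repressive marks were rare at broad peaks, and these lists covered little sequence. The H3K9me3 lists held 14546 and 8356 peaks in CT and KD, over 2.98 and 1.84 Mb. The H3K27me3 lists held 6003 and 4804 peaks, over 1.45 and 1.14 Mb. An H3K9me3 peak overlapped 1.88% (1.56 to 2.25) of the members in CT and 1.4% (1.13 to 1.73) in KD, and an H3K27me3 peak 0.829% (0.620 to 1.09) in CT and 0.463% (0.310 to 0.664) in KD. At the narrower H3K4me3 peaks the shares were 4.93% and 4.76% for H3K9me3 and 5.70% and 4.74% for H3K27me3. An input peak overlapped 25 members, 0.399% (0.258 to 0.588), and 3.09% of the narrower peaks. Without peaks that overlap the input, H3K9me3 in CT was found at 1.57% of the members and 2.55% of the narrower peaks, and H3K27me3 in CT at 0.464% and 2.92%. In KD these shares were 1.07% and 2.30% for H3K9me3, and 0.0961% and 2.10% for H3K27me3. Peaks of 500 to 1499 bp without input had 0.843% for H3K9me3 and 0.577% for H3K27me3 in CT. For H3K9me3 the order of the sets thus changed with the widths compared. For these marks the antibodies named in the methods and in the labels are exchanged, and each list was taken as the mark its label names.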

How the data were processed

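The authors deposited peak lists that hold positions in bp only, with no read count or score; per the submitters' processing notes Bowtie2, MACS2 and bedtools were used on hg38. Whether MACS2 was run in narrow or broad mode and against which control is not given in the sources used here, and thresholds in the methods differ from those in the labels. Of the lists, 13 were used and 6 lists of exclusive peaks were not.

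Overlaps, widths, sequence composition and motif matches were computed with python 3.11.15, numpy 2.4.6, pandas 2.3.3, scipy 1.17.1, pysam 0.24.0, numba 0.67.0 and samtools 1.23.1, figures were drawn with matplotlib 3.10.9, and the computations were tested on simulated data. Starts in the lists were read as counted from 0, and transcript starts were taken from GENCODE release 44. The CTCF matrix of 14 columns was learned in 6 rounds from 12859 repeat-masked CT peaks shared with KD and OE, which gave 12018 sites.

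Named genes were those of the 20 widest members on chromosomes 1 to 22 and X, of the 10 lowest and 10 highest ratios of KD to CT width among members there with a protein-coding start and no input peak, of the 10 members with the most CTCF peaks, and of the gene lists; some genes of these lists are not reported here. Members and lists were chosen with earlier results of these data known. Alternatives changed the width minimum, merging, start definition, CTCF lists, overlap, distances, motif threshold and width measure.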

Additional observations from a re-analysis of the deposited data

How the results depend on the processing

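With 1 library per condition, a difference between libraries cannot be told apart from a difference between conditions, and the lists do not hold the reads behind a peak. Widths depend on the peak caller, which left gaps between neighbouring peaks. By the labels, and not by the methods, the OE list had a looser threshold than the others. No paired analysis was possible because each condition has 1 library, which leaves no replicates to pair. The intervals of differences in share compare the lists over the same peaks. Of 84 alternative values of 16 results, 28 differed from the value given by less than its counting error (for counts of peaks, by less than 1.5 times), 55 moved further and 1 changed sign. Where a value moved, the cause was not tested unless the setting itself shows it.

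A minimum width of 1000 bp gave 16717 peaks, 49.9% with a protein-coding start, CTCF shares of 10.2%, 15.2% and 13.8% for CT, KD and OE, and a median KD to CT ratio of 0.986. A minimum of 2000 bp gave 1788 peaks, 82.7% with such a start, CTCF shares of 12.8%, 18.8% and 16.9%, and a median ratio of 0.978. Merging peaks across gaps of at most 500 bp gave 11081 peaks, 74.1% with such a start, a median ratio of 0.989, 245 narrower and 183 wider in KD. The share with a protein-coding start, 71.1% over all 6270 members, was 50.1% with the start of the gene record only, 79.6% within 1000 bp and 72.8% on chromosomes 1 to 22, X and Y.

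With repeat-masked CTCF lists the shares were 10.4%, 12% and 10.0% for CT, KD and OE, the difference of KD from CT was 1.53 points and that of OE from CT was -0.431 points, the value that changed sign. With at least 0.5 of the CTCF peak inside, the shares were 10.1%, 15.4% and 14%. With the widest 20000 CTCF peaks of each list they were 5.95%, 8.23% and 8.07%, with differences of 2.28 and 2.12 points, from fewer peaks by construction. In the central 1000 bp they were 7.61%, 12.1% and 10.3%, with differences of 4.48 and 2.65 points, from less sequence by construction. A CTCF peak beside the member was found within 2000 bp at 6.67%, 8.13% and 8.45%, and within 10000 bp at 26.3%, 28.7% and 30.1%. The motif shares at p below 0.00001 were 47.9%, 45.1% and 43.7%, and with the consensus at no more than 1 mismatch 32.0%, 30.9% and 30.1%.

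The median ratio of KD to CT width was 0.970 with KD bases inside the member only, which allows no ratio above 1 and so gave 0 wider members. The reverse choice gave a median of 0.998 for CT over KD. Each choice by width favours a ratio below 1, so these medians cannot decide whether KD was the narrower one. Ratios of 0.5 and 2 gave 4 narrower and 4 wider members, and the widest KD peak in place of the sum gave 487 narrower and 50 wider ones.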
